A study of Homo sapiens with 7 samples.

Results

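The let-7 family on the card comprised 8 of 377 human microRNA assays, namely let-7a, let-7b, let-7c, let-7d, let-7e, let-7f, let-7g and miR-98. They were selected by the name of the assay, but with earlier results of these data known. MicroRNA was measured in 7 derivatives of MDA-MB-435-GFP, an established human tumor cell line that carries green fluorescent protein. The 3 oligometastatic L1-R2 lines, numbered 4T, 3T and 8T, and the 4 polymetastatic L1Mic-R2 lines, numbered 2T, 3T, 7T and 8T, each came from the lung of a distinct mouse that had received L1-R1 or L1Mic-R1 cells by tail vein, and all 7 were recovered by G418 selection. L1-R1 had been grown from lung macrometastases and L1Mic-R1 from tumor cells in lung free of them, in the same animal, so that all lines of a group descend from 1 such culture. No other treatment of the lines before RNA extraction is stated. Values by line are given below in the order just named. The comparison asks whether the family differs between lines that form few metastases and lines that form many.

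The let-7 microRNAs are short RNAs, excised from hairpins, that guide Argonaute to messenger RNAs through pairing of the seed, bases 2 to 8. Their known targets include RAS genes, HMGA2 and MYC, and LIN28 proteins block the maturation of their precursors. They rise as cells differentiate and are often low in tumors. MYC is known to lower let-7 and a set of other microRNAs.

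The mature sequences are shown because they state both what the family shares and the few bases by which an assay must tell its members apart. Each is written from 5′ to 3′ with the seed in capitals, as RefSeq gives it on build GRCh38.p14. The names of the assays state no arm, and the 5p arm was taken for all 8.

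let-7a: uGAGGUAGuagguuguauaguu
let-7b: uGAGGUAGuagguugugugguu
let-7c: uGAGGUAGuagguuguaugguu
let-7d: aGAGGUAGuagguugcauaguu
let-7e: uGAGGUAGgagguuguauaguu
let-7f: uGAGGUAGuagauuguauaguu
let-7g: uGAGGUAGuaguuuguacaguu
miR-98: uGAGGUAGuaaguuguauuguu

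All 8 hold the seed GAGGUAG, which 11 of the 2370 mature names in the RefSeq table have. The others with it are let-7i, miR-4458 and miR-4500, which are not analysed here. Counted from 1 at the 5′ end and with the base of let-7a first, let-7c differs by A19G, let-7e by U9G and let-7f by G12A. The members that differ at 2 positions are let-7b with A17G and A19G, let-7d with U1A and U16C, let-7g with G12U and U18C, and miR-98 with G11A and A19U. Whether an assay also amplified a member that differs by 1 base was not tested.

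The mature let-7a can come from 3 loci and let-7f from 2, and a single assay reports their sum. On GRCh38.p14 the loci of let-7a lie at chr9:94175962-94175983 on the plus strand, inside the span of the long noncoding RNA gene MIRLET7A1HG, at chr11:122146568-122146589 on the minus strand inside MIR100HG, and at chr22:46112752-46112773 on the plus strand inside MIRLET7BHG. MIRLET7F1 at chr9:94176353-94176374 follows the let-7a hairpin of chromosome 9 after 310 bases, and MIRLET7D at chr9:94178841-94178862 follows it after a further 2400 bases. MIRLET7B at chr22:46113691-46113712 shares the MIRLET7BHG locus, 863 bases from its let-7a hairpin. MIRLET7F2 at chrX:53557246-53557267 and MIR98 at chrX:53556299-53556320 lie 850 bases apart on the minus strand, inside the protein coding gene HUWE1. MIRLET7C at chr21:16539838-16539859 lies inside MIR99AHG, 658 bases from the hairpin of miR-99a. MIRLET7E at chr19:51692793-51692814 lies inside SPACA6, between miR-99b, 104 bases away, and miR-125a, 389 bases away. MIRLET7G at chr3:52268336-52268357 lies on the minus strand inside WDR82.

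Levels were read as the threshold cycle (Ct), the PCR cycle at which fluorescence crosses a set threshold, on a log2 scale where a lower value stands for more RNA. A Ct of 40 stands for a well without a crossing, and an assay was called detected in a line when its raw Ct was below 38. One card was run per line, and 160 to 184 of 377 microRNAs were detected per card. Card numbers ran from 1 to 3 for L1-R2 and from 4 to 7 for L1Mic-R2, so that card order and group cannot be told apart. In bulk RNA, fewer cells of a type and less RNA per cell cannot be told apart either. Of the marker microRNAs of cell types, 2 of 7 epithelial, 1 of 2 melanocytic, 0 of 5 blood and 1 of 1 endothelial assays were detected in all 7 lines. Epithelial miR-141 and miR-205 and blood miR-142-5p and miR-451 were not detected in any line. By contrast, epithelial miR-200b and miR-200c were detected in all 7, at a raw Ct of 32.57 to 36.76 and 30.10 to 35.46. Detection was partial for the remaining epithelial assays, miR-200a (4 lines), miR-429 (3) and miR-203 (2). It was partial too for blood miR-150 (5 lines), miR-223 (4) and miR-142-3p (2, both of L1-R2). Melanocytic miR-204 had a raw Ct of 25.79 to 26.92, and miR-211 one of 27.49 to 30.56 in L1-R2, but it was detected in only 2 of the 4 L1Mic-R2 lines. Endothelial miR-126 ran from 32.46 to 35.06 in L1-R2 and from 28.71 to 32.41 in L1Mic-R2, and the part of these markers in the results was not tested.

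The 7 assays of let-7 proper were detected in all 7 lines, as were 135 of the 377 microRNAs, whereas miR-98 was detected in 6 lines. By mean raw Ct the order ran from let-7e at 25.77 through let-7g at 26.13, let-7b at 29.31, let-7d at 29.42, let-7a at 31.33, let-7f at 32.56 and miR-98 at 34.16 to let-7c at 34.20. These means place let-7e 25th and let-7c 125th of the 377 microRNAs. Assays differ in efficiency, so that this is an order of Ct and not of molecules. Neighbours in the order were separated in all 7 lines only between let-7g and let-7b, by 3.18 cycles ± 1.11 (SD, n = 7), and between let-7d and let-7a, by 1.91 ± 0.92 (SD, n = 7). The order of let-7e and let-7g held in 6 lines and that of let-7b and let-7d in 4, with a mean difference of 0.11 ± 0.88 cycles (SD, n = 7). The order of let-7a and let-7f held in 6 lines, and those of let-7f and miR-98 and of miR-98 and let-7c in 5 each.

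**Figure D1:**
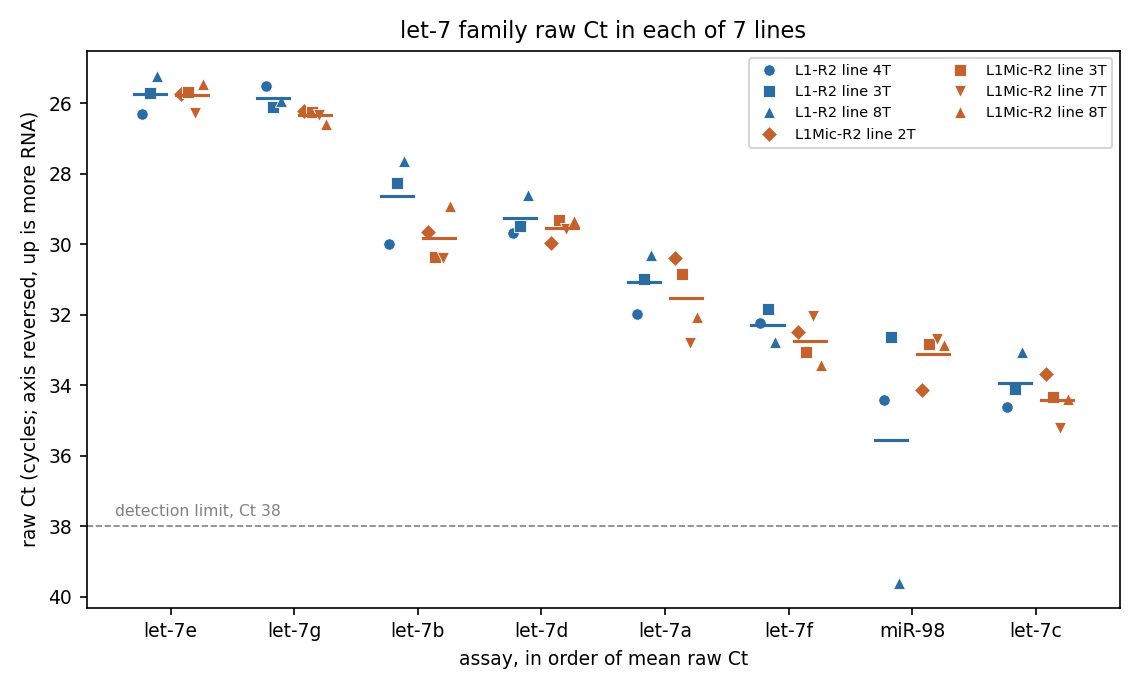
Raw Ct (vertical axis, cycles, reversed so that more RNA is up) of the 8 assays, 1 point per line, for the 3 L1-R2 lines (blue) and the 4 L1Mic-R2 lines (orange), with bars at the group means and a dashed line at the detection limit of 38. The groups overlap for 7 assays, let-7g alone has its 3 L1-R2 values below its 4 L1Mic-R2 values in Ct, and miR-98 in L1-R2 line 8T lies past the limit.

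Between the groups, none of the 8 members passed limma with Benjamini-Hochberg adjustment after quantile normalization, at an adjusted p under 0.05, and the lowest adjusted p among them was 0.384. Of all 181 microRNAs tested, 9 or 4.97% passed, with 3.31% higher in L1Mic-R2. At an unadjusted p under 0.05 limma called 0 of the 8, against 35 or 19.3% of the 181, with 9.39% higher and 9.94% lower in L1Mic-R2. With normalized Ct, the 2 groups did not overlap for 0 of the 8 members, against 19.3% of all tested. The log2 fold change, L1Mic-R2 over L1-R2, was below 0 for 5 members and above 0 for 3, beside 83 of 181 below 0 overall (45.9%). Its median over the family was -0.09, beside 0.06 over all tested.

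The members with the lowest Ct were let-7e and let-7g, and their raw Ct spanned 1.08 and 1.07 cycles over the 7 lines. Raw Ct of let-7e was 26.31, 25.70 and 25.23 in the L1-R2 lines and 25.73, 25.67, 26.28 and 25.45 in the L1Mic-R2 lines. The lowest and the highest value both belonged to L1-R2, and its log2 fold change was 0.10 (SE 0.37, 95% interval -0.80 to 1.01, limma adjusted p = 0.885). Raw Ct of let-7g was 25.51, 26.11 and 25.93 in the L1-R2 lines and 26.23, 26.26, 26.34 and 26.58 in the L1Mic-R2 lines. Every L1-R2 line was thus lower in raw Ct than every L1Mic-R2 line, as was the case in either direction for 20.4% of the microRNAs tested on this scale. After quantile normalization the groups of let-7g overlapped, with a log2 fold change of -0.26 (SE 0.18, 95% interval -0.70 to 0.17, limma adjusted p = 0.474). It was -0.11 without L1-R2 line 4T and -0.43 without L1-R2 line 8T.

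The value for let-7g depended on the scale. Relative to the small nuclear RNA U6, it was -0.45 (SE 0.17), with an unadjusted limma p of 0.0362 and an adjusted p of 0.172, where 23.2% of all tested passed the unadjusted threshold. The groups did not overlap on that scale, as for 24.3% of all tested. Scaled to the mean of those microRNAs that every line expressed above the limit, it was -0.27, again without overlap (21% of all tested). Relative to the small nucleolar RNAs RNU44 and RNU48 it was 0.30, with overlap, where 22.1% of all tested did not overlap. Raw Ct of U6 ran from 15.97 to 16.77 over the lines, that of RNU44 from 23.67 to 25.97 and that of RNU48 from 18.81 to 20.97, and the lowest value of all 3 was in L1-R2 line 4T. On the RNU44 and RNU48 scale the median of all microRNAs tested was 0.56, and let-7g stood at -0.26 from it. That distance is the same on the raw, U6 and detected-mean scales by construction, since these differ only by a single value per card. After quantile normalization it was -0.32.

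The widest spread among members detected in every line belonged to let-7b and let-7a. Raw Ct of let-7b was 29.99, 28.25 and 27.64 in the L1-R2 lines and 29.66, 30.36, 30.41 and 28.91 in the L1Mic-R2 lines. Lines 3T and 8T of L1-R2 were lower in Ct than every L1Mic-R2 line, and line 4T fell among them. The log2 fold change of let-7b was -0.84 (SE 0.78, 95% interval -2.74 to 1.07, limma adjusted p = 0.598), the lowest in the family. With any 1 line left out it ranged from -1.46 to -0.38, and its direction held under all 19 alternatives. The SD of its normalized Ct over the 7 lines was 1.12, and 2 of the 44 microRNAs with a mean Ct within 2 cycles had a larger SD.

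Raw Ct of let-7a was 31.97, 30.98 and 30.30 in the L1-R2 lines and 30.38, 30.84, 32.81 and 32.06 in the L1Mic-R2 lines. Lines 2T and 3T of L1Mic-R2 lay within the range of L1-R2, and lines 7T and 8T above it. The log2 fold change was -0.24 (SE 0.66, 95% interval -1.86 to 1.38, limma adjusted p = 0.842), and relative to RNU44 and RNU48 it turned to 0.36. The SD of normalized Ct was 0.88, above that of all but 8 of 40 microRNAs of similar Ct. By contrast, the SD of let-7g was 0.22, and 33 of 41 microRNAs of similar Ct had a larger SD. Of the 7 members detected in every line, 5 had an SD above the median of 0.43 over the 135 such microRNAs, whatever their Ct. Among microRNAs of similar Ct, a larger SD was found in 4 of 32 for let-7e, 28 of 46 for let-7d, 19 of 29 for let-7c and 33 of 44 for let-7f.

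The remaining let-7 members overlapped between the groups. Raw Ct of let-7d, which shares the chromosome 9 cluster with let-7a and let-7f, was 29.68, 29.49 and 28.62 in the L1-R2 lines and 29.95, 29.30, 29.56 and 29.35 in the L1Mic-R2 lines. Raw Ct of let-7f was 32.25, 31.85 and 32.78 in the L1-R2 lines and 32.50, 33.05, 32.04 and 33.42 in the L1Mic-R2 lines. Raw Ct of let-7c was 34.62, 34.12 and 33.06 in the L1-R2 lines and 33.69, 34.35, 35.21 and 34.39 in the L1Mic-R2 lines. The log2 fold changes were -0.18 for let-7d, -0.01 for let-7f and 0.12 for let-7c, all smaller than their standard errors of 0.28, 0.39 and 0.56. For let-7d and let-7f the 95% intervals, -0.87 to 0.52 and -0.96 to 0.94, lay within 1 on the log2 scale, and for let-7c the interval was -1.25 to 1.49.

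The most distant value of the family was that of miR-98 in 1 line. Raw Ct of miR-98 was 34.41, 32.62 and 39.60 in the L1-R2 lines and 34.14, 32.84, 32.69 and 32.85 in the L1Mic-R2 lines. Line 8T of L1-R2 was not detected, and the other 6 lines spanned 32.62 to 34.41, with line 3T of L1-R2 the lowest of all. A further value that the files give for each well without a name exceeded the threshold of 0.3 in every well with a Ct and fell below it in every well without one, and is called the fluorescence rise here. For miR-98 it was 0.322 in L1-R2 line 8T, beside 0.942 to 1.48 in the other lines. The log2 fold change of miR-98 was 2.92 (SE 1.59, 95% interval -0.94 to 6.78, limma adjusted p = 0.384). Leaving out L1-R2 line 8T gave 0.95 (limma adjusted p = 0.521), and leaving out L1-R2 line 3T gave 4.29, with an adjusted p of 0.175. With Ct limited to 35, which narrows the gap of an undetected well, it was 1.31. Its chromosome X neighbour let-7f can also arise from chromosome 9. In the same line let-7f had a raw Ct of 32.78, inside the range of the other lines. Its normalized Ct there was 33.08, the highest of all lines and equal to that of L1Mic-R2 line 3T. Relative to the mean raw Ct of the let-7 members detected in every line, let-7f was 3.70 there, beside 1.67 to 3.40 in the other lines. Whether these neighbours moved together was not tested.

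**Figure D2:**
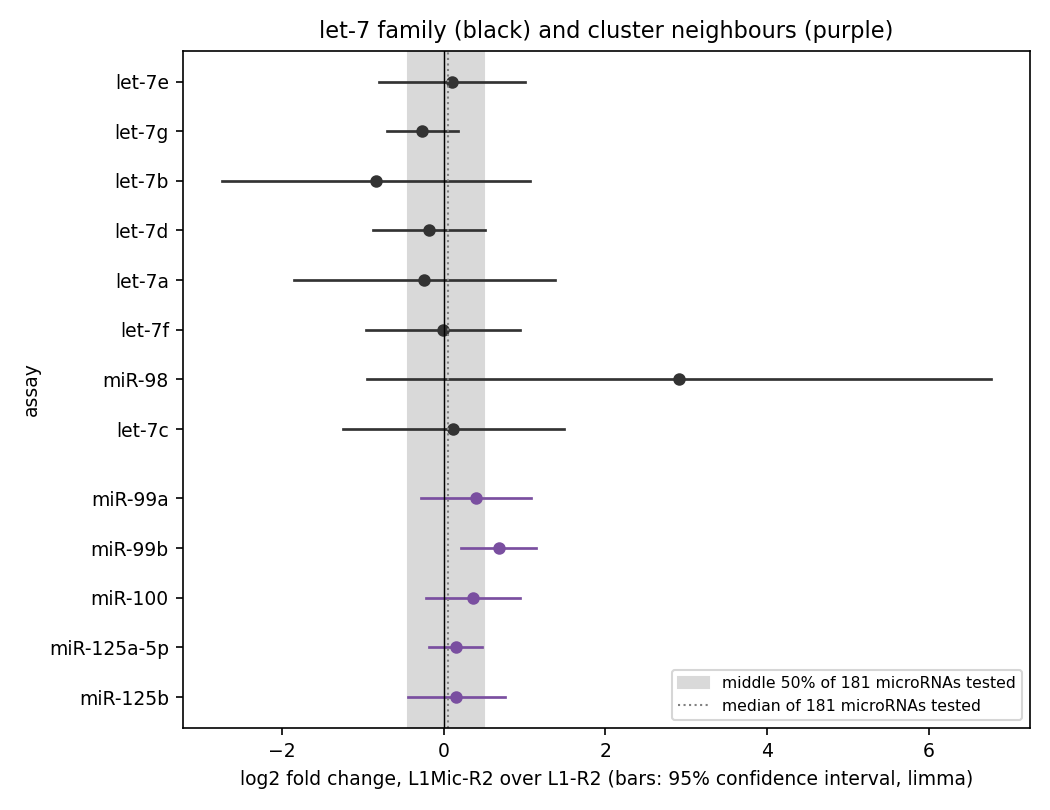
Log2 fold change, L1Mic-R2 over L1-R2 (horizontal axis), with 95% confidence intervals from limma on quantile normalized Ct, for the 8 let-7 assays (black) and the 5 microRNAs encoded beside them (purple), with the middle 50% (-0.45 to 0.50, gray) and the median (0.06, dotted) of 181 microRNAs tested. The intervals of all 8 let-7 assays include 0, and that of miR-98 is the widest, from -0.94 to 6.78.

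Single lines were also compared over the whole family. The mean raw Ct of the 7 let-7 members detected in every line was 30.05, 29.50 and 29.08 in the L1-R2 lines and 29.74, 29.98, 30.38 and 30.02 in the L1Mic-R2 lines. Line 8T of L1-R2 had the lowest raw Ct of the 7 lines for 5 members, let-7a, let-7b, let-7c, let-7d and let-7e, and the highest for miR-98. Line 7T of L1Mic-R2 had the highest for 3, let-7a, let-7b and let-7c. Line 4T of L1-R2 had the highest for let-7e and the lowest for let-7g. After quantile normalization, line 8T of L1-R2 kept the lowest Ct for let-7b, let-7c and let-7d. It had the highest for miR-98 and, equal to L1Mic-R2 line 3T at 33.08, for let-7f. Line 7T of L1Mic-R2 had the highest for let-7a, let-7b, let-7c and let-7g.

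**Figure D3:**
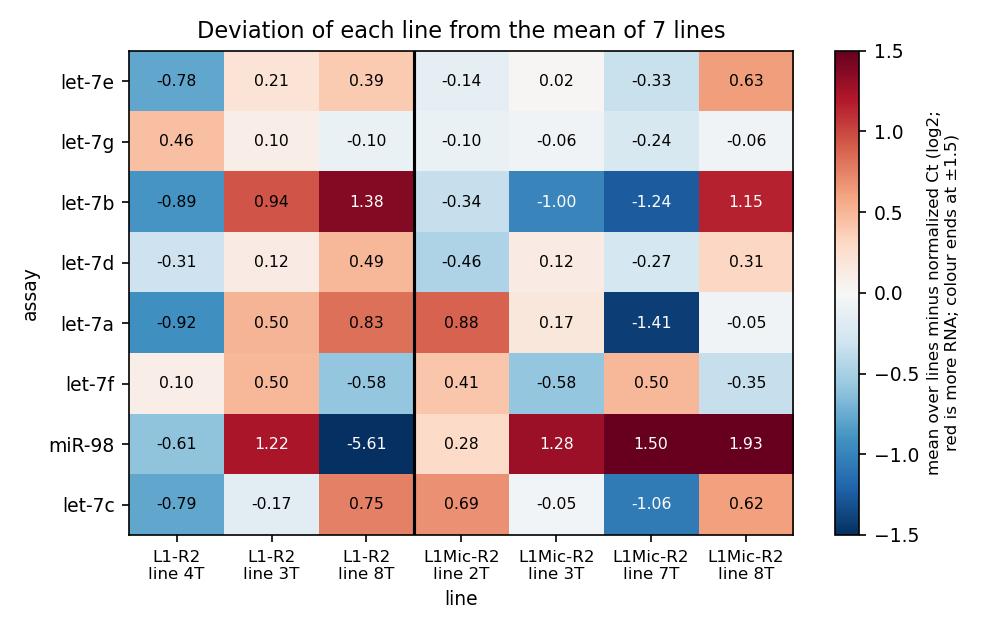
Deviation of each line from the mean of 7 lines (color, log2, mean minus normalized Ct, red is more RNA, color ends at ±1.5) for the 8 assays (rows) in the 3 L1-R2 and 4 L1Mic-R2 lines (columns, divided by a black bar). In L1Mic-R2 line 7T let-7a, let-7b and let-7c were -1.41, -1.24 and -1.06, in L1-R2 line 8T let-7b was 1.38 and miR-98 was -5.61, and no assay but miR-98 passed 1.5 in size.

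A Ct relative to the mean of the 7 let-7 members of the same line does not change when a control is subtracted from a whole card, and describes the composition of the family. On that measure let-7e was -3.73, -3.80 and -3.85 in the L1-R2 lines and -4.01, -4.30, -4.10 and -4.57 in the L1Mic-R2 lines. All L1Mic-R2 lines thus had more let-7e relative to the family than any L1-R2 line. The means were -3.79 ± 0.06 (SD, n = 3) and -4.25 ± 0.25 (SD, n = 4), a difference of 0.45 on the log2 scale that ranged from 0.34 to 0.53 with any 1 line left out. Measured the same way, 11% of the 181 microRNAs did not overlap, 8.29% of them higher in L1Mic-R2, and let-7e was the only member among the 8 to do so. With quantile normalized Ct in place of raw Ct the difference was 0.29, and the groups overlapped. In raw Ct the log2 fold change of let-7e itself was -0.034, beside -1.21 (let-7b) to -0.28 (let-7d) for the other members in the mean. The difference of 0.45 thus came from those members and not from a change in the Ct of let-7e. The largest opposite difference was that of let-7b, -0.72, with means of -0.92 ± 0.75 (SD, n = 3) and -0.20 ± 0.64 (SD, n = 4) that overlapped. The other let-7 members differed by -0.02 to 0.21. With any 1 line left out, the difference ranged from -1.15 to -0.46 for let-7b and from 0.07 to 0.44 for let-7d, and it took either sign for let-7a (-0.24 to 0.36), let-7c (-0.13 to 0.21), let-7f (-0.45 to 0.30) and let-7g (-0.29 to 0.41).

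**Figure D4:**
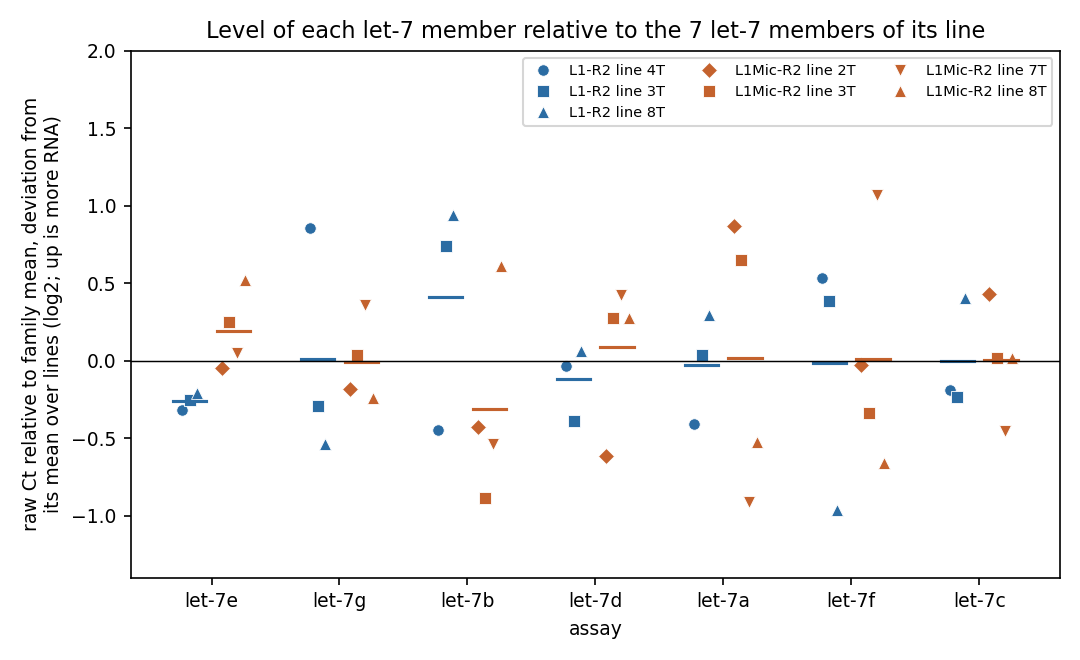
Raw Ct of each of the 7 let-7 members relative to their mean in the same line, as a deviation from the mean over lines (vertical axis, log2, more RNA is up), 1 point per line, for L1-R2 (blue) and L1Mic-R2 (orange), with bars at the group means. For let-7e the 3 L1-R2 points lie below all 4 L1Mic-R2 points, and the other 6 members overlap.

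Pairs of members differed in how constant their difference in raw Ct stayed over the lines. Over the 21 pairs of the 7 let-7 members, the SD of the difference in raw Ct had a median of 0.82 cycles. It was lowest for let-7d and let-7e, at 0.34, and next for let-7c and let-7e, at 0.44, and neither pair is encoded together. The pair let-7a and let-7c, which differ by 1 base, followed at 0.45. By comparison, let-7a and let-7f, which also differ by 1 base and share the chromosome 9 cluster, had an SD of 1.18, and let-7a and let-7d of the same cluster 0.93. The highest of the 21 was 1.25 for let-7b and let-7f. Such an SD also depends on the spread of each member alone, and is not a measure of whether members vary together. The SD of raw Ct over the 7 lines was 0.40 for let-7e, 0.42 for let-7d, 0.56 for let-7f, 0.95 for let-7a and 1.08 for let-7b. Outside the family, the microRNAs whose normalized Ct was most like the mean of these 7 members, out of 127 compared over the 7 lines, were miR-193b with a Pearson r of 0.82, miR-455-5p with 0.82 and miR-183 with 0.70. All 7 lines share 1 normalization, and these coefficients are given as a description.

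The fluorescence rise differed by assay as well as by line. Averaged over the lines it was 3.21 for let-7g, 3.01 for let-7e and 2.71 for let-7d, and between 0.90 and 1.66 for let-7f, let-7b, miR-98, let-7a and let-7c, beside a median of 2.18 over 135 microRNAs. It was lower in every L1Mic-R2 than in every L1-R2 line for let-7b, let-7c and let-7g. Of the 135 microRNAs, 18.5% were separated in that direction and 1.48% in the other. For let-7b the rise was 1.16, 1.35 and 1.38 in the L1-R2 lines and 0.846, 0.826, 1.08 and 1.02 in the L1Mic-R2 lines.

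The 5 microRNAs encoded beside let-7c, let-7e and the let-7a locus of chromosome 11 had log2 fold changes above 0, with a median of 0.36 (0.19 without L1-R2 line 4T), though relative to U6 and in raw Ct 2 of the 5 were below 0, and relative to the detected mean 1. The one past an unadjusted p of 0.05 was miR-99b, which lies beside let-7e. Its normalized Ct was 32.85, 32.41 and 32.41 in the L1-R2 lines and 31.78, 31.68, 32.09 and 31.94 in the L1Mic-R2 lines, so that the groups did not overlap, as for 8.84% of all tested in that direction. The log2 fold change was 0.68 (SE 0.19, limma unadjusted p = 0.0116, adjusted p = 0.104), but the groups overlapped in raw Ct and on the other 3 scales. The values were 0.40 for miR-99a beside let-7c, 0.36 for miR-100 of the let-7a locus, 0.15 for miR-125a-5p beside let-7e, and 0.16 for miR-125b, whose assay sums a locus on chromosome 11 with that let-7a and a locus on chromosome 21 with let-7c, each with an adjusted p of 0.470 or more by limma.

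Of 14 other microRNAs known to be lowered by MYC, 12 could be tested, all but miR-22 and miR-34a. The list was chosen with earlier results of these data known. At an unadjusted limma p under 0.05, 5 of the 12 were lower in L1Mic-R2 and 0 higher, beside 9.94% of all tested lower, and 0 passed after adjustment. They were miR-26a with a log2 fold change of -0.75 (SE 0.16, adjusted p = 0.0545), miR-30b with -0.69 (SE 0.15, adjusted p = 0.0598), miR-30c with -0.62 (SE 0.19), miR-29c with -0.48 (SE 0.14) and miR-150, a microRNA of lymphocytes detected in 5 lines, with -3.35 (SE 1.31). For miR-29c the 3 L1-R2 lines had the same rank and hence an SD of 0 after quantile normalization. For miR-146a, also among the 12, all 7 lines had the same rank. Its fold change on that scale was thus fixed at 0, beside -0.89 in raw Ct. The median of the 12 was -0.37, beside -0.09 for the let-7 family and 0.06 for all tested. Relative to RNU44 and RNU48, 0 of the 12 passed the unadjusted threshold, beside 20.4% of all tested. Their median was 0.08, at -0.47 from the median of all tested on that scale. Relative to U6, 8 of the 12 passed the unadjusted threshold, beside 23.2% of all tested. After adjustment 2 of the 12 passed, beside 8 of all 181 tested. These were miR-26a (limma adjusted p = 0.0245) and miR-146a (limma adjusted p = 0.0390). The adjusted count was 1 relative to the detected mean (10 of all tested) and 3 with Ct limited to 35 (8 of all tested). It was 4 by limma with trend and robust, for which the count over all tested is given below. With the line number as a block, which leaves 1 residual degree of freedom, the unadjusted count was 1. The share of all tested at that threshold was not counted in that fit, so that this count lacks a background. The difference between this list and the let-7 family was not tested.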

How the data were processed

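MicroRNA was measured with TaqMan Human MicroRNA Array A cards, 1 per line, in 3 L1-R2 and 4 L1Mic-R2 lines. The authors deposited for each well a Ct, in cycles on a log2 scale, not quantile normalized, in which 40 stands for Undetermined. The same files hold a deposited value without a name, used here as a score (the fluorescence rise). SDS RQ Manager served the authors for import and normalization, and what that normalization did to the Ct in these files is not given in the sources used here. Groups and line numbers follow the labels. The labels mention SYBR and the mammary fat pad, where the paper describes TaqMan and the tail vein.

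Quantile normalization with limma 3.58.1 (R 4.3.3) took in 381 assays of all 7 cards, and 40 minus Ct was fitted by lmFit and eBayes with no covariate. The 181 microRNAs with raw Ct below 38 in at least 3 lines were tested, with Benjamini-Hochberg adjustment over all of them. A card was run for each line only once, so that p-values measure the spread between lines, error of the measurement included. The number of cards limits the precision. Since all lines of a group descend from a single culture, these p-values cannot tell the metastatic phenotype apart from a difference between the founding cultures.

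Named by rule were the 8 members, the 5 microRNAs encoded beside them, U6, RNU44, RNU48, the microRNAs lowered by MYC past an unadjusted p of 0.05, and the 3 others most like the family mean. Markers of cell types, miR-22, miR-34a and miR-146a are also named, the last after its values were seen. The members and lists were chosen with earlier results of these data known. Alternatives were 4 other scales, Ct limited to 38 or 35, stricter and looser filters on detection, limma with trend and robust, the methods' two-tailed Student test, a replicate block, and fits that left out 1 line in turn.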

Additional observations from a re-analysis of the deposited data

Results flagged for a closer look

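One line stood far from the other 3 of its group. The raw Ct of let-7d relative to the mean of the 7 let-7 members was 0.22 in L1Mic-R2 line 2T and between -0.82 and -0.67 in the other L1Mic-R2 lines. The gap to the nearest of these was 0.858 of the range of the group. Among 21 groups of 4 lines examined in this way, 1 was found, and chance would give 1.05.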

How the results depend on the processing

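Under the alternatives, 0 of 151 fold changes of the members passed an adjusted p of 0.05 (lowest 0.172), and 23 changed sign, none of them of let-7b or miR-98. In raw Ct let-7c was -0.48 and let-7e -0.034. Relative to U6, let-7c was -0.42, and 1 member, let-7g, passed an unadjusted p of 0.05, beside 23.2% of all tested. Relative to RNU44 and RNU48 the values were 0.36 for let-7a, 0.52 for let-7d, 0.34 for let-7f and 0.30 for let-7g, where the median of all microRNAs tested was 0.56, and relative to the detected mean let-7c was -0.24. The count of all microRNAs at an adjusted p under 0.05, 9 as reported, was 0 relative to RNU44 and RNU48, without a detection filter, by the Student test and under both blocks, 14 when every line had to show detection and 21 with trend and robust. The median of the 5 neighbouring microRNAs was 0.14 in raw Ct and 0.94 relative to RNU44 and RNU48. That of the 12 microRNAs lowered by MYC was -0.72 in raw Ct, -0.66 relative to U6, 0.083 relative to RNU44 and RNU48, -0.49 relative to the detected mean and -0.17 with the replicate block.

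With any 1 line left out, the ranges were 0 to 4 for the count of all microRNAs, 0 to 1 for members at an unadjusted p under 0.05 (miR-98 without L1-R2 line 3T), -0.76 to 0.17 for let-7a, -0.245 to 0.54 for let-7c, -0.36 to 0.017 for let-7d, -0.22 to 0.33 for let-7e, -0.30 to 0.26 for let-7f, -0.43 to -0.11 for let-7g, 0.19 to 0.50 for the median of the 5 neighbouring microRNAs, -0.23 to 0.06 for the family median and -0.47 to -0.21 for the median of microRNAs lowered by MYC. Of all microRNAs tested, 19.3% passed the unadjusted threshold with every line included, and this share was not counted for the fits with a line left out. The numbers 3T and 8T appear among L1-R2 and L1Mic-R2 alike. The deviations of the lines named 3T correlated at -0.04 over 181 microRNAs, and those of the lines named 8T at -0.20. So few pairs cannot show whether equal numbers stand for anything shared, and this was not tested. With the number as a replicate block, which leaves 1 residual degree of freedom, let-7c was -0.0021. Where the block followed the file names instead, in which 3T and 4T of L1-R2 are exchanged, let-7a was 0.11 and let-7d 0.12. The cause of these changes was not tested. The Ct of miR-98 in L1-R2 line 8T is past the detection limit of 38, so that its level there is only a bound.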
